A study of Mus musculus with 6 samples.

Results

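The genes described here are Rag1, Rag2, Dntt and Arpp21, 4 genes chosen by symbol from the 28048 listed in the count tables and followed in every library. Each symbol matched 1 row (ENSMUSG00000061311, ENSMUSG00000032864, ENSMUSG00000025014 and ENSMUSG00000032503 in the same order), and all 4 were among the 13599 genes with a UMI, a molecule counted once by its molecular barcode, in at least 15 kept cells. RAG1 and RAG2 form the recombinase that cuts DNA at the recombination signals of antigen receptor genes, RAG1 carrying the catalytic site and RAG2 a domain that reads modified histones. Dntt encodes TdT, the polymerase that adds untemplated bases at the cut ends before they are joined. In the thymus these genes become active while progenitors commit to the T lineage and begin to rearrange their receptor genes. Arpp21 encodes an RNA-binding phosphoprotein and hosts the precursor of a miR-128 microRNA.

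The study asked how a timing enhancer of Bcl11b, a T-lineage commitment factor, bears on the fate of early progenitors. WT mice were C57BL/6 Bcl11b YFP/YFP, and ΔTE mice were Bcl11b YFPΔEnh/YFPΔEnh, so that both genotypes carried a yellow fluorescent reporter at both Bcl11b alleles and only ΔTE cells lacked the enhancer, in every cell of the animal. Progenitors from the bone marrow of adult mice of both sexes were pooled by genotype and grown on OP9-DL1, a stromal line that presents the Notch ligand DL1, with IL-7 and Flt3-L. The methods list IL-7, IL-2, SCF and IL-15 for the cultures made to yield NK and ILC cells, of which this experiment is one. Cells were sorted as DN1 (CD44+CD25-), DN2a (CD44+CD25+Bcl11b-) or DN2b (CD44+CD25+Bcl11b+), put back on OP9-DL1 for 4 days, and read by sci-RNA-seq3, which labels RNA by rounds of barcodes. Cells were fixed whole, and the labels name nuclear RNA. A start here names the sorted population and not the state at harvest, and harvested cultures still held stromal cells.

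With 1 library for each of the 6 conditions, nothing between conditions could be tested. Intervals are exact 95% intervals, while for a share of 0 cells the limit given is that of 3 counts and bounds cells with a UMI, not cells expressing the gene. Both cover counting error only. Each library came from 3 reverse-transcription wells, 18 in all, which are taken as parts of 1 library and not as replicates. Whether the wells of a library came from 1 culture is not given in the sources used here. Cells were kept with 200 or more genes, up to 2000 UMIs and a mitochondrial share of up to 30%. They numbered 3401 to 19489 per library and 60671 in all, with 1717136 to 9048728 UMIs per library and median depths of 386 to 485 UMIs. No cell barcode was shared between libraries. The median mitochondrial share was 13.3% in the WT DN2a library and 20.9% to 23.9% in the other 5. Levels are in CPM, the UMIs of a gene per 1000000 UMIs of its library. Bcl11b itself stood at 235, 535 and 856 CPM from WT DN1, DN2a and DN2b starts and at 89.4, 256 and 540 from ΔTE starts, lower in every ΔTE library than in its WT counterpart.

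The promoters of the recombination genes are shown because the factors known to act on them, E proteins, RUNX, GATA and TCF/LEF proteins, are followed beside them in these libraries. The RefSeq windows run from 250 bases before to 50 after the start of the gene on build GRCm38.p6, and the sequence reads along the gene's own strand. The Rag1 window lies at chr2:101649483-101649782 on the minus strand, Rag2 at chr2:101624462-101624761 on the plus strand and Dntt at chr19:41029025-41029324 on the plus strand. Capitals mark matches on either strand. The E-box was searched as CANNTG, which E proteins bind. The Runx core was searched as TGTGGT. The GATA motif was searched with the letters AGATAA. For TCF/LEF proteins the core searched was CTTTGA.
Rag1: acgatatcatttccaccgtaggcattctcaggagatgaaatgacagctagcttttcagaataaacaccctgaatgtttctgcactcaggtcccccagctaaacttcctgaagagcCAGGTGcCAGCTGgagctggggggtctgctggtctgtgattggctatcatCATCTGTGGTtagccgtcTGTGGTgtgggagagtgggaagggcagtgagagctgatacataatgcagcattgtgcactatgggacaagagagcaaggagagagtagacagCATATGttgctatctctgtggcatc
Rag2: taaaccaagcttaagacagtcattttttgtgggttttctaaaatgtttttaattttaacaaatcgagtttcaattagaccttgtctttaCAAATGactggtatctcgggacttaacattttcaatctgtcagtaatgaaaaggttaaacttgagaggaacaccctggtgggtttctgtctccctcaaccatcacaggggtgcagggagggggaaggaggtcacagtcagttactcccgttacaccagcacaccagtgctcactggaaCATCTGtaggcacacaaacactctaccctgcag
Dntt: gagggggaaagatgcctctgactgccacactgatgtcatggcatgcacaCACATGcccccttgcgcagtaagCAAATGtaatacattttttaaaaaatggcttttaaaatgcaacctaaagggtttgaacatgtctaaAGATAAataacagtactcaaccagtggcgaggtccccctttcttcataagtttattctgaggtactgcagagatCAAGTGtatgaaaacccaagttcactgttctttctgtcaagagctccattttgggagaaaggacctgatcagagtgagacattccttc
The Rag1 window held 4 E-boxes and 2 Runx cores, of which 1 E-box and 1 Runx core overlapped each other. The Rag2 window held 2 E-boxes, and the Dntt window held 3 E-boxes and 1 GATA motif. The TCF/LEF core was in none of the 3 windows. Among all 32851 promoter windows of the same length, 72.3% held an E-box, 16.8% a Runx core, 11.2% a GATA motif and 16.0% a TCF/LEF core. Arpp21 had 9 windows in the table, and none is printed.

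Rag1 and Rag2 are neighbours that point toward each other, and B230118H07Rik overlaps both in the GENCODE annotation, on the strand of Rag1. Whether the counting used strand is not given in the sources used here, so reads could have been split among the 3. B230118H07Rik had 18.4, 17.4 and 12.5 CPM in WT DN1, DN2a and DN2b libraries and 18.5, 12.0 and 12.8 in ΔTE libraries, not called at that step in WT and called lower in ΔTE, at a log2 ratio of -0.62. Traf6, on the other side of Rag1, stayed between 49.9 and 62.4. Blnk and Opalin, the neighbours of Dntt, had 23 and 2 UMIs in all kept cells.

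Rag1 was sparse and rose with the DN2a start. Its level was 2.34 CPM from 14 UMIs in the WT DN1 library, 14.5 from 131 UMIs in WT DN2a and 15.7 from 43 UMIs in WT DN2b. In ΔTE libraries it was 3.90 from 23 UMIs, 17.7 from 112 UMIs and 25.1 from 43 UMIs. The order was therefore WT DN1, ΔTE DN1, WT DN2a, WT DN2b, ΔTE DN2a and ΔTE DN2b, and the intervals of each pair of neighbours overlapped except between ΔTE DN1 and WT DN2a. Across wells, the DN1 libraries ran from 1.21 to 3.88 in WT and from 3.59 to 4.19 in ΔTE. The DN2a wells ran from 10.7 to 16.3 in WT and from 14.7 to 19.9 in ΔTE, above every DN1 well. DN2b wells ran from 13.4 to 19.4 in WT, and in ΔTE they were 40.2, 17 and 15.9, so 1 well stood apart. In all, 330 of 60671 kept cells had a Rag1 UMI, and 33 of them had more than 1.

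Rag2 had a smaller range than Rag1 on the same scale. WT levels were 7.51, 17.9 and 19.0 CPM from DN1, DN2a and DN2b starts, from 45, 162 and 52 UMIs. ΔTE levels were 8.14, 17.1 and 15.2, from 48, 108 and 26 UMIs. Both DN1 libraries lay below the other 4, whose intervals overlapped one another and of which only that of ΔTE DN2b, from 9.90 to 22.2, reached into the DN1 intervals. Wells from DN1 starts reached at most 9.94 in WT and 9.43 in ΔTE, and wells from DN2a starts reached 14.9 to 19.0. The 3 ΔTE DN2b wells were widely spread at 14.5, 24.5 and 7.08, the last from 4 UMIs. Rag2 UMIs were found in 429 cells, 12 of which had more than 1.

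Dntt climbed at both steps of start. WT libraries held 6.68, 37.8 and 80.2 CPM from DN1, DN2a and DN2b starts, from 40, 342 and 219 UMIs. ΔTE libraries held 5.94, 30.2 and 107, from 35, 191 and 183 UMIs. From lowest to highest the order was ΔTE DN1, WT DN1, ΔTE DN2a, WT DN2a, WT DN2b and ΔTE DN2b. The intervals of the DN1 pair overlapped, those of the DN2a pair met between 33.9 and 34.8, and those of the DN2b pair lay just apart, WT reaching up to 91.6 and ΔTE down to 91.8. Wells kept the starts apart, with DN1 wells at 2.92 to 8.98, DN2a wells at 29.2 to 43.0 and DN2b wells at 73.1 to 119 over both genotypes. Dntt was detected in 917 cells, 85 of them with more than 1 UMI.

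Arpp21 was detected in 17911 cells, 29.5% of those kept, with up to 11 UMIs in a cell. Its WT level was 538, 999 and 1183 CPM from DN1, DN2a and DN2b starts, and its ΔTE level was 630, 1049 and 1110. WT wells were tight, at 529 to 545, 988 to 1014 and 1156 to 1235. ΔTE DN1 wells lay at 616 to 646, above all 3 WT DN1 wells. ΔTE DN2a wells were 1214, 671 and 1176, and ΔTE DN2b wells 874, 1159 and 1324. The low ΔTE DN2a well also held 13.2% stromal cells by markers, against 2.95% and 1.79% in its partners, and its median mitochondrial share was 16.6%. Their part in the Arpp21 value was not tested.

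**Figure D1:**
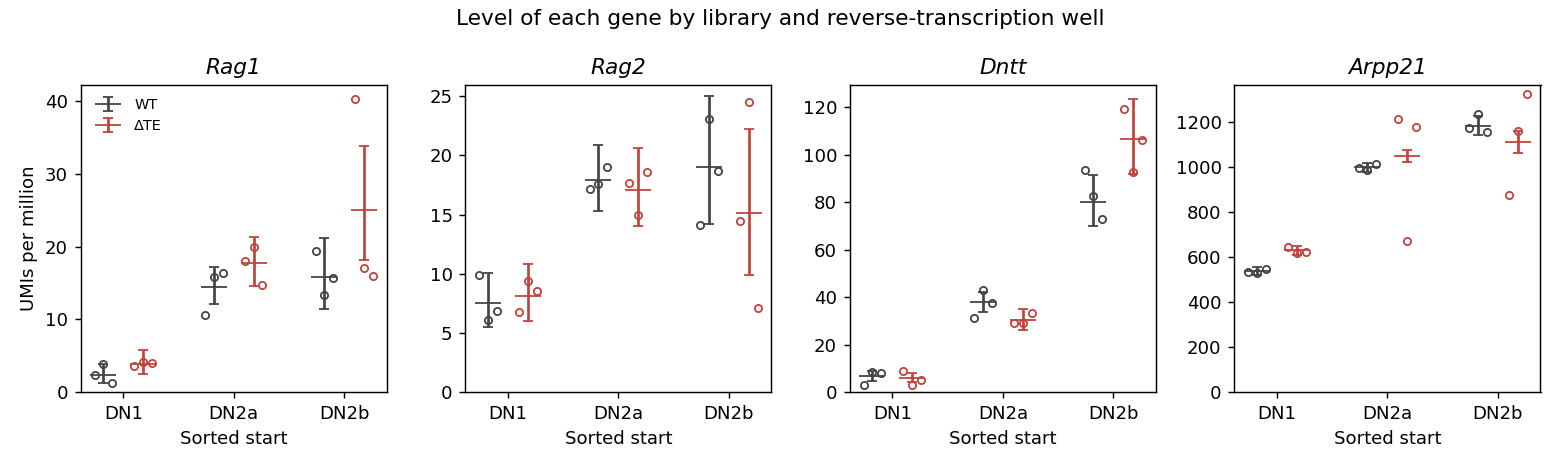
Level of each gene in CPM (vertical axis, from 0) by sorted start for WT (grey) and ΔTE (red). Dashes with bars are library values with exact 95% intervals and open circles are the 3 wells of a library. The DN1 wells sit below the DN2a wells for all 4 genes in both genotypes. For Rag1, 1 ΔTE DN2b well stands at 40.2, above its library value of 25.1.

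The step from DN1 to DN2a start was called for all 4 genes in both genotypes. A gene was called where its ratio was at least 1.5-fold either way and the interval excluded 1, among genes with at least 20 UMIs in the pair of libraries. Of all genes, 18.7% were called at this step in WT and 13.7% in ΔTE, and 15.7% of all genes in WT were called higher. The fold in WT was 6.20 for Rag1 (log2 ratio 2.63, interval 1.83 to 3.54), 2.39 for Rag2 (1.25, 0.77 to 1.76), 5.66 for Dntt (2.50, 2.03 to 3.01) and 1.86 for Arpp21 (0.89, 0.84 to 0.95). In ΔTE it was 4.54 for Rag1 (2.18, 1.53 to 2.90), 2.10 for Rag2 (1.07, 0.57 to 1.59), 5.09 for Dntt (2.35, 1.82 to 2.91) and 1.67 for Arpp21 (0.74, 0.68 to 0.79). The DN1 values of Rag1 and Dntt, on which these folds rest, were not above the share in stromal cells of all libraries given with the gates. Most of those stromal cells came from DN2a libraries, so that share need not be the background of a DN1 library. The median log2 ratio of all genes was 0.16 in WT and 0.011 in ΔTE. Scaling by TMM or by non-mitochondrial UMIs brought the WT median to 0.013 and 0.011, and all 4 genes stayed called under them. None of the wells of a DN2a library overlapped a DN1 well of its genotype for Rag1, Rag2 or Dntt; for Arpp21 they did not either, the low ΔTE well lying at 671 against at most 646. Without ΔTE DN2a well 1, the Arpp21 log2 ratio in ΔTE fell to 0.52, below the fold required. The DN2a libraries enter this step and the next, so that the values of both steps share them.

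From DN2a to DN2b only Dntt was called among the 4 genes, in both genotypes. Dntt was 2.12-fold higher in WT (log2 ratio 1.08, interval 0.83 to 1.33) and 3.53-fold higher in ΔTE (1.82, 1.52 to 2.12), while the median gene stood at -0.20 and -0.078. Of all genes, 13.8% were called at this step in WT and 11.7% in ΔTE. Rag1 had ratios of 0.12 (-0.41 to 0.63) in WT and 0.50 (-0.04 to 1.02) in ΔTE. In ΔTE it was called without DN2b well 2 or well 3, at 0.69 and 0.74, and was -0.11 without well 1. Rag2 had 0.088 (-0.39 to 0.55) and -0.17 (-0.85 to 0.45). Arpp21 had 0.24 (0.19 to 0.30) in WT, which was -0.062 with no limit on mitochondrial UMIs, and 0.082 (0.0075 to 0.16) in ΔTE, which was -0.094 without that limit. The WT and ΔTE intervals of the Dntt ratio did not overlap, and whether the step differed between genotypes could not be tested with 1 library each.

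Between genotypes the 4 genes were mostly not called. The share of all genes called was 4.22% at the DN1 start, 10.1% at DN2a and 8.43% at DN2b, and 1 of the 12 ratios of the 4 genes was called. That ratio was Rag1 at the DN2b start, 1.59-fold higher in ΔTE (log2 ratio 0.67, interval 0.026 to 1.31). It rested on the well at 40.2 CPM: without that well it was 0.062 (-0.82 to 0.89), and without WT well 2 or WT well 3 it was 0.58 and 0.66, with intervals that reached below 0. Rag1 was at 0.74 (-0.28 to 1.81) at DN1 and 0.29 (-0.086 to 0.67) at DN2a. Rag2 ratios were 0.12 (-0.50 to 0.74), -0.067 (-0.43 to 0.29) and -0.33 (-1.07 to 0.38) from DN1, DN2a and DN2b starts.

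Dntt was at -0.17 (-0.87 to 0.52) at DN1, -0.32 (-0.59 to -0.063) at DN2a and 0.41 (0.12 to 0.70) at DN2b. At DN2a the median of all genes was itself at -0.15, and the Dntt ratio was -0.19 (-0.45 to 0.07) with TMM scaling. Arpp21 was at 0.23 (0.16 to 0.30) at DN1, where the wells of the genotypes did not overlap. At DN2a its ratio was 0.071 (0.025 to 0.12) and took either sign, -0.14 without ΔTE well 1 and 0.27 without ΔTE well 2. At DN2b it was -0.092 (-0.17 to -0.01), and 0.073 without ΔTE well 1. Beside the DN2a ratios stand the lower mitochondrial share of the WT DN2a library and its stromal share of 9.31%, against 6.10% in ΔTE DN2a; their part in these ratios was not tested beyond the alternatives tried.

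**Figure D2:**
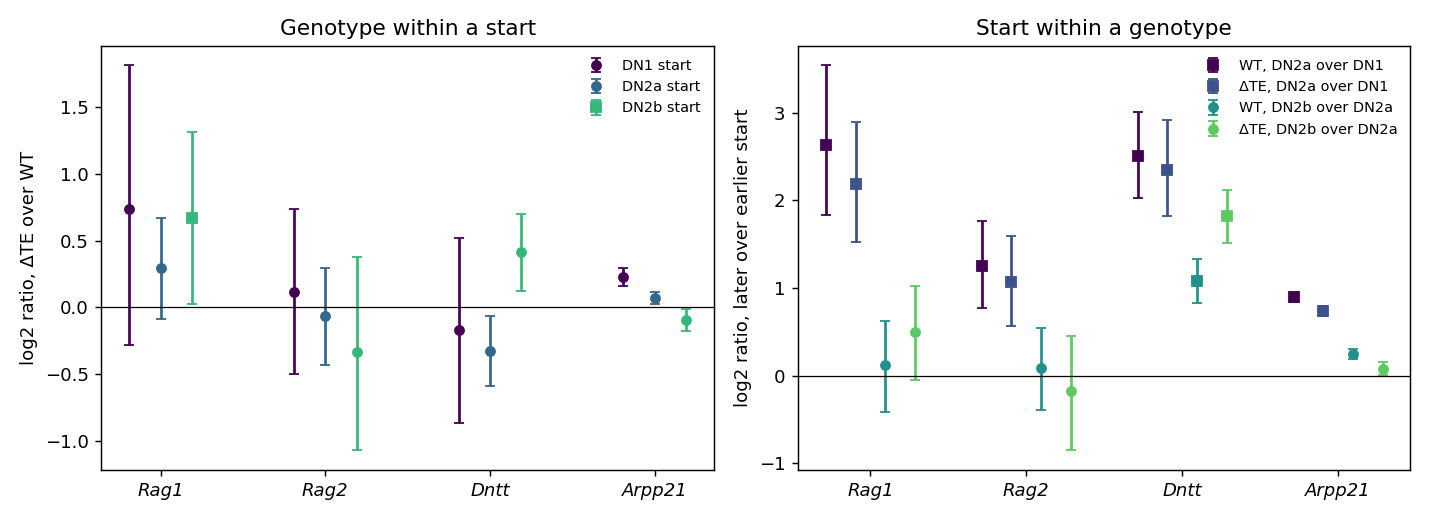
log2 ratios with exact 95% intervals for ΔTE over WT within each start (left) and for the later over the earlier start within each genotype (right); squares are called, circles are not. All 8 ratios from DN1 to DN2a are squares, from DN2a to DN2b only those of Dntt are, and between genotypes only Rag1 at the DN2b start is.

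Stromal, T and ILC or NK markers moved with start and genotype too. Summed over 8 genes, stromal markers stood at 397, 1765 and 624 CPM from WT DN1, DN2a and DN2b starts and at 211, 1049 and 270 from ΔTE starts, and 7 of the 7 or 8 tested were called lower in ΔTE at every start, where 2.58%, 8.41% and 5.05% of all genes were called lower at DN1, DN2a and DN2b. The 8 T markers summed to 303, 742 and 1109 in WT and 237, 481 and 954 in ΔTE, with 4, 5 and 2 called lower in ΔTE. The 14 ILC or NK markers summed to 435, 599 and 600 in WT and 399, 575 and 928 in ΔTE, with 0, 7 and 7 called higher, where 1.64%, 1.68% and 3.38% of all genes were. Without stromal cells, the Rag1, Rag2 and Dntt ratios stayed within their intervals, and values within marker gates are given for T-gated cells.

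Genes that work with RAG and TdT are read against all genes, of which 18.7% and 13.7% were called from DN1 to DN2a in WT and ΔTE and 13.8% and 11.7% from DN2a to DN2b. Hmgb1 and Hmgb2 bend DNA for the recombinase, and Hmgb2 was called higher at 1 of 4 steps, from 89.0 to 155 CPM in WT from DN1 to DN2a. Of 10 genes of end joining, the pathway that seals the cut ends, 1 was called higher from DN1 to DN2a in each genotype, and at most 1 in each direction was called from DN2a to DN2b. Of 9 genes that signal DNA breaks, 1 was called, at 1 step, from DN2a to DN2b in ΔTE. Neither of the TdT partners Dnttip1 and Dnttip2 was called. Medians of the end joining list were 0.22 and 0.12 from DN1 to DN2a in WT and ΔTE, beside 0.16 and 0.011 for all genes.

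Polm, which encodes a polymerase of the same family as TdT that works in end joining, was the 1 gene of these repair lists called in the same direction in at least 2 genotype comparisons. It had 38 UMIs in ΔTE DN1 against 15 in WT (log2 ratio 1.36), and 62 against 33 at DN2a (1.43). At DN2b it had 14 UMIs against 9, a ratio of 1.31 that was not called. Of all genes, 1.64%, 1.68% and 3.38% were called higher in ΔTE at DN1, DN2a and DN2b. The highest-count genes of the lists, Hmgb1, Prkdc, Rad50 and Dnttip2, were called in none of the 3 genotype comparisons, with log2 ratios from -0.33 to 0.11. Of 14 S phase and 14 G2/M genes none was called between genotypes, Mcm6 and Top2a having the most UMIs. Of all genes, 4.22%, 10.1% and 8.43% were called there at DN1, DN2a and DN2b. Between starts 1 G2/M gene was called higher, from WT DN1 to DN2a, where 15.7% of all genes were.

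Among 13 regulators known to act on Rag genes, 5 were called higher and 2 lower from DN1 to DN2a in WT, and 3 higher and 2 lower in ΔTE. All genes were called higher in 15.7% and lower in 3.02% in WT, and in 10% and 3.66% in ΔTE. From DN2a to DN2b, 4 regulators were called higher and 2 lower in WT, beside 1.24% and 12.5% of all genes. In ΔTE 3 were called higher and 2 lower, beside 2.9% and 8.76%. Both counts of higher regulators include Bcl11b, on which the DN2a and DN2b starts were sorted, so its call follows the sort. The 5 in WT from DN1 to DN2a, named after their values were seen, were Foxo1, Gata3, Tcf7, Lef1 and Bcl11b, and the 2 lower were Gfi1b, a repressor of Rag transcription, and Spi1, a myeloid and early progenitor factor. Lef1, a relative of the Tcf7 product in T progenitors, rose from 6.84 to 21.9 and 50.9 CPM over the WT starts and from 13.7 to 46.2 and 110 over the ΔTE starts. It was called higher in ΔTE at all 3 starts, with log2 ratios of 1.01, 1.08 and 1.11, and Bcl11b was called lower at all 3, at -1.39, -1.06 and -0.67. Runx1, the regulator with the most UMIs, was not called and stood at -0.26, -0.38 and -0.52. The list as a whole had genotype medians of 0.077, -0.0026 and -0.0071, beside -0.0041, -0.15 and -0.023 for all genes.

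Cells were gated on marker lists that hold none of the 4 genes, with at least 2 UMIs of 1 list and more than of any other. The T gate (Cd3d, Cd3e, Cd3g, Ptcra, Lat, Lck, Cd5 and Cd6) took 3099 cells, 1950 of them at the limit of 2 UMIs, and 48514 of 60671 cells met no gate. The B and plasmacytoid dendritic gates took 24 cells each and are not described further. T-gated cells held 32.6 CPM of Rag1 (interval 24.9 to 41.9), 33.1 of Rag2 (25.4 to 42.5), 102 of Dntt (87.6 to 117) and 1412 of Arpp21 (1359 to 1467). ILC or NK-gated cells, 2406 in number and 1829 of them at the limit of 2 UMIs, held 9.99, 13.1, 26.9 and 733 of the same genes. In the WT DN1 library Nkg7, Cd160 and Il17rb of that list had 1750, 563 and 204 UMIs, against 0 of Il2rb and 12 of Icos. In ΔTE DN2b they had 553, 335 and 183, against 102 and 203. The gate thus need not mark ILC or NK cells. Progenitor-gated cells, 2697 in number and 2009 of them at the limit, held 7.86, 6.81, 12.6 and 582. These sums mix libraries, and the gates drew on them unequally: the WT and ΔTE DN1 libraries gave 268 and 152 of the T-gated cells, 867 and 779 of the progenitor-gated and 372 and 249 of the myeloid-gated cells. Within single libraries Arpp21 in T-gated cells lay above ILC or NK-gated, progenitor-gated and stromal-gated cells with its whole interval in 6 of 6 libraries. For the sparser genes the T gate was above the ILC or NK gate in 5 of 6 libraries each, with intervals apart in 1 for Rag1, 0 for Rag2 and 3 for Dntt. Against the progenitor gate the intervals were apart in 0 libraries for Rag1, 1 for Rag2 and 3 for Dntt. T-gated cells from DN1 starts had 0 Rag1 UMIs in 268 WT cells, which allows a share of up to 1.12%, and 2 in 152 ΔTE cells.

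Stromal cells are not known to use Rag1, Rag2 or Dntt, and their values are given as the background of free or misassigned RNA. The 3170 stromal-gated cells, by collagen and matrix genes, held 7.54 CPM of Rag1 (4.31 to 12.3), 6.13 of Rag2 (3.26 to 10.5), 15.1 of Dntt (10.3 to 21.3) and 210 of Arpp21 (191 to 231). The 737 myeloid-gated cells had 0 Rag1 UMIs, which allows a share of up to 0.407% of cells, and 1 Dntt UMI. Their 3 Rag2 UMIs gave 6.40 CPM (1.32 to 18.7), with an interval that held the stromal Rag2 value. With every cell thinned to 300 UMIs, 0.945% of T-gated and 0.244% of stromal cells had a Rag1 UMI, 1.13% and 0.139% a Rag2 UMI, 3.38% and 0.557% a Dntt UMI, and 32.7% and 4.81% an Arpp21 UMI. Median depths before thinning were 500 and 547 UMIs. Among all cells of the WT and ΔTE DN1 libraries the thinned shares were 0.0725% and 0.0969% for Rag1 and 0.238% and 0.269% for Dntt, below those of stromal cells of all libraries, and so not above background by that measure. Rag2 shares there were 0.217% (0.135% to 0.332%) and 0.312% (0.209% to 0.448%). The stromal Rag2 share was 0.139% from 4 cells, with an interval from 0.038% to 0.356% that held both. Rag2 in DN1 libraries could thus not be told from background by that measure. The stromal value rests on few libraries, since 1588 and 671 of its 2870 thinned cells came from WT and ΔTE DN2a. Within WT DN2a, 0.441% of stromal cells (0.177% to 0.906%) had a Rag1 UMI, close to the share among all cells of that library, and in ΔTE DN2a 0 of 671 did. The stromal cells of the DN1 libraries themselves held no Rag1 UMI, 0 of 259 in WT and 0 of 167 in ΔTE, which allows shares of up to 1.16% and 1.80%. Their Dntt UMIs were 4 in WT, at 20.6 CPM (5.61 to 52.7), and 0 in ΔTE. Rag1 from DN2a and DN2b starts was at 0.461% and 0.476% in WT and 0.464% and 0.578% in ΔTE. Dntt was at 1.12% and 2.54% in WT and 0.840% and 3.30% in ΔTE. Unthinned, 1.77% of T-gated and 0.473% of stromal cells had a Rag1 UMI. Thinning left out cells under 300 UMIs, 462 to 4723 per library.

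**Figure D3:**
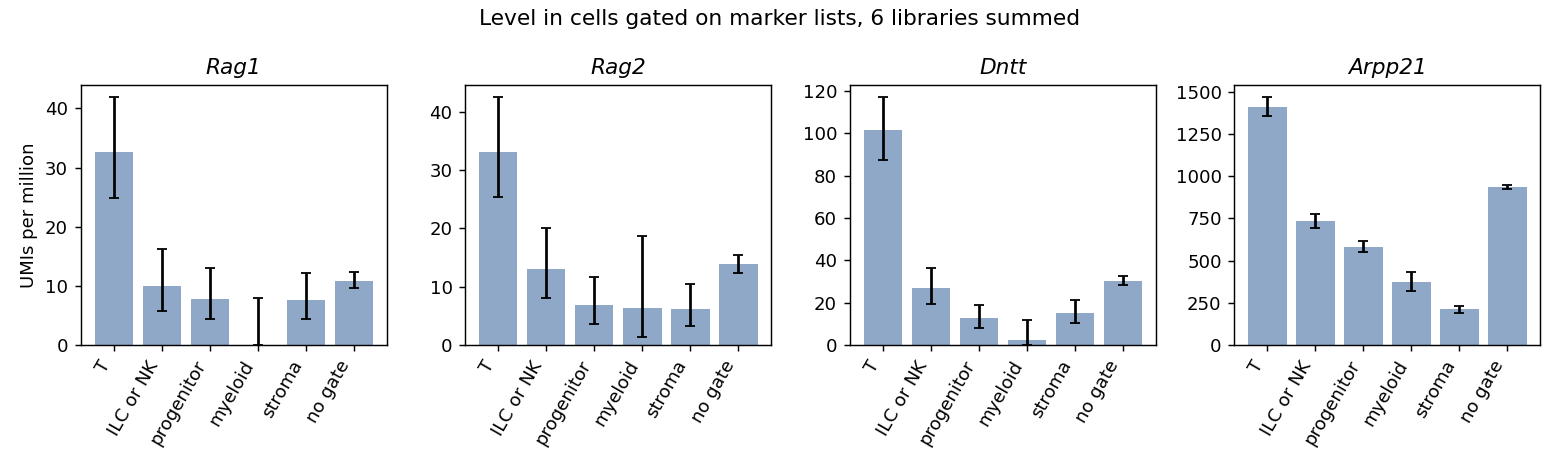
CPM of each gene (bars from 0, with exact 95% intervals) in cells gated on T, ILC or NK, progenitor, myeloid and stromal markers and in cells that met no gate, summed over 6 libraries that the gates drew on unequally. The T gate is highest for all 4 genes in these sums, at 32.6, 33.1, 102 and 1412.

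Within T-gated cells the Dntt level was 11.3 CPM from 2 UMIs in WT DN1, 92.5 in WT DN2a and 129 in WT DN2b, and 0 in 152 ΔTE DN1 cells, which allows a share of up to 1.97%, 84.7 in ΔTE DN2a and 240 in ΔTE DN2b. From DN2a to DN2b the log2 ratio was 0.48 in WT, with an interval from -0.070 to 1.03 that included 0, and 1.5 in ΔTE (0.77 to 2.26). The ΔTE to WT log2 ratio of Dntt in T-gated DN2b cells was 0.90 (0.30 to 1.49). Rag1 in the same cells was at 0.94 (-0.24 to 2.09) and Arpp21 at -0.083 (-0.28 to 0.12). Rag2 in T-gated cells was at 39.6 from 7 UMIs in WT DN1 and 27.7 and 38.4 in WT DN2a and DN2b, and at 9.18 from 1 UMI, 39.1 and 37.3 in the ΔTE libraries, with overlapping intervals. Arpp21 in T-gated cells rose from 882 to 1484 from DN1 to DN2a in WT and from 900 to 1349 in ΔTE. The markers behind the T gate differed between libraries. In ΔTE DN1, Lck and Lat had 731 and 354 UMIs among all kept cells, against 152 of Cd3g. In WT DN2b they had 625 and 506, against 1446 of Cd3g. T-gated cells from different starts thus need not be like cells.

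Cells with a UMI of 1 member were then compared with cells of the same library without one. T markers were 1.79 times as high in Rag1 cells (interval 1.56 to 2.03), 1.69 times in Rag2 cells (1.5 to 1.9), 2.03 times in Dntt cells (1.89 to 2.18) and 1.37 times in Arpp21 cells (1.34 to 1.40). The 3 Cd3 genes, which encode the signalling chains of the T cell receptor complex, were higher still, at 2.21, 2.12, 2.74 and 1.68 times. Bcl11b was at 1.52, 1.29, 1.62 and 1.46 times. Zbtb16, a factor of innate lymphoid progenitors, was at 0.568 times (0.404 to 0.777) in Rag1 cells, 0.620 (0.469 to 0.806) in Rag2 cells, 0.436 (0.342 to 0.547) in Dntt cells and 0.937 (0.905 to 0.968) in Arpp21 cells. It was lower in Dntt cells in 6 of 6 libraries, and higher in 2, 1 and 2 of 6 libraries in Rag1, Rag2 and Arpp21 cells.

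Among other cell types only stromal markers were lower with every interval below 1, at 0.768, 0.463, 0.557 and 0.231 times in Rag1, Rag2, Dntt and Arpp21 cells. ILC or NK markers were at 0.850 (0.693 to 1.03), 1.01 (0.860 to 1.18), 0.870 and 0.891 times. Progenitor markers were at 0.843 (0.666 to 1.05), 0.757, 0.766 and 0.810 times. Myeloid markers were at 0.490, 0.838 (0.583 to 1.16), 0.519 and 0.532 times. Intervals printed here included 1. B markers in Rag1 cells, with 4 UMIs, were at 1.56 (0.424 to 3.99). Plasmacytoid dendritic markers in Rag2 cells, with 6 UMIs, were at 1.30 (0.478 to 2.83). S phase genes were at 0.971 to 1.04 times over the 4 genes, and G2/M genes at 1.09 to 1.17 times. Median depths were 498.5, 541, 458 and 500 UMIs in cells with Rag1, Rag2, Dntt and Arpp21, against 413 to 434 in cells without. Of 1639 cells with a UMI of Rag1, Rag2 or Dntt, 1182 had no Cd3 UMI, 72.1% (69.9% to 74.3%), against 92.3% of the other cells. These shares pool the libraries unequally and were not thinned. Within libraries they ran from 57.1% against 79.4% in WT DN2b to 91.3% against 98.8% in ΔTE DN1.

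**Figure D4:**
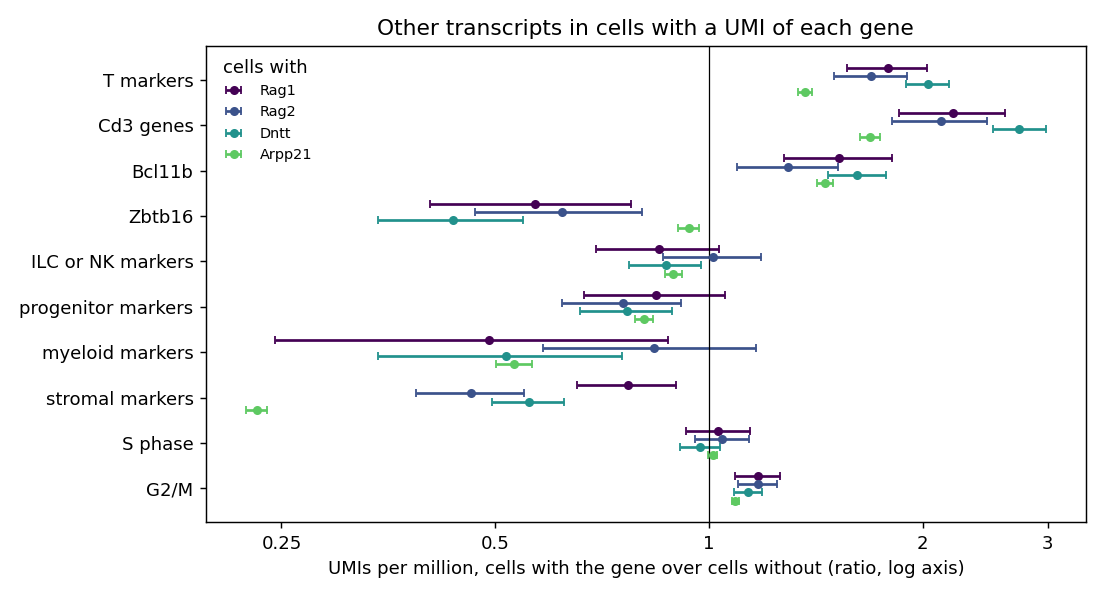
Ratio of CPM in cells with a UMI of each gene to cells of the same library without one (horizontal log axis), with exact 95% intervals, for marker lists, single genes and cell cycle lists. T markers, Cd3 genes and Bcl11b lie right of 1 for all 4 genes, and Zbtb16 and stromal markers lie left of 1.

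Few cells showed a pair of recombination genes at once. Unthinned, 6 cells had both Rag1 and Rag2, 19 had Rag1 and Dntt, 12 had Rag2 and Dntt, and none had all 3. In cells thinned to 300 UMIs, 8 of 169 Rag1 cells had a Dntt UMI, 4.73% (2.07% to 9.11%). The share in cells without Rag1 was 1.34% with each library weighted by its number of Rag1 cells. The ratio was 3.52 (1.54 to 6.78) and above 1 in 4 of 6 libraries. Every share in other cells is weighted in this way, by the cells with the first gene, and is not the pooled share. Rag2 was in 2 of 169 Rag1 cells, a ratio of 2.46 with an interval from 0.299 to 8.75, and Dntt in 4 of 213 Rag2 cells, a ratio of 1.60 (0.439 to 4.05). At this depth neither could be told from the share in other cells.

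Arpp21 was shared more widely. With others weighted by library as above, it was found in 31.4% of Rag1 cells against 23.3% of others (ratio 1.35, 1.05 to 1.67), in 30.05% of Rag2 cells against 21.9% (1.37, 1.09 to 1.67) and in 37.6% of Dntt cells against 23.5% (1.60, 1.42 to 1.79). The last ratio was above 1 in 6 of 6 libraries and the other two in 5 of 6. Cells of 1 library share their source, so these ratios describe the 6 libraries.

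**Figure D5:**
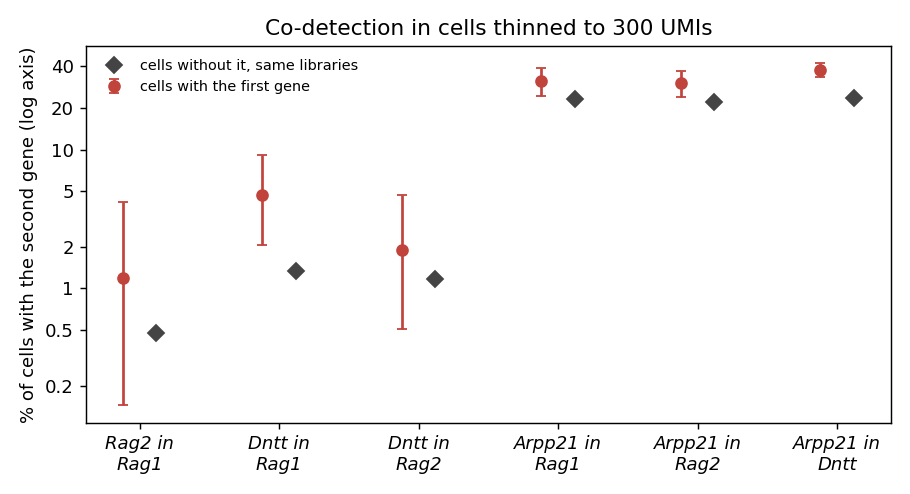
Share of cells with a UMI of a second gene (vertical log axis, percent) among cells with a first gene (red, exact 95% intervals) and among cells of the same libraries without it (grey), after thinning to 300 UMIs. Grey shares weight each library by its number of cells with the first gene. Dntt in Rag1 cells and Arpp21 in Rag1, Rag2 and Dntt cells lie above the grey points with their whole interval; Rag2 in Rag1 cells and Dntt in Rag2 cells do not.

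The genes most like each member in cells were ranked by their ratio in cells with the member over cells without it, among genes with at least 20 UMIs in cells with the member and a ratio above 1 in at least 5 of 6 libraries, a rule that favours genes high in those cells. Beside Rag1 these were Parpbp (2.73), Dntt (2.28), Khdc1a (2.22), Mettl6 (2.19) and Cd3g (2.19), of 2267 genes with enough UMIs. Beside Rag2 they were Cd3d (2.93), Parp14 (2.32), Cmah (2.30), Zc3h6 (2.28) and Nwd1 (2.04), of 3168. Beside Dntt they were Cd3d (3.52), Gbp8 (3.35), Cd3e (3.06), Wdr78 (3.04) and Rag1 (2.89), of 5275. Beside Arpp21 they were Tnfrsf8 (3.14), Ptcra (3.09), Mir128-2 (2.91), Gm49661 (2.83) and Slc23a4 (2.65), of 11212. The library rule was passed by 245, 401, 649 and 1726 genes for Rag1, Rag2, Dntt and Arpp21. Whether that exceeds what unrelated genes would give was not tested. Some ratios rest on few UMIs: Parpbp had 23 in Rag1 cells (interval 1.73 to 4.10), and Cd3g had 112 (1.80 to 2.63). Cd3 genes, which mark the T cell receptor complex, were among the 5 of Rag1, Rag2 and Dntt, beside genes such as Parpbp, Mettl6 and Zc3h6. Ptcra, the pre-T receptor chain, was among those of Arpp21. Mir128-2 lies within Arpp21, and its 46 UMIs may share reads with it.

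Over the 6 libraries, the level of Rag1 on the log2(CPM + 1) scale was most like that of Zfp800, Dnmt1 and Socs1, with Pearson r of 0.997, 0.995 and 0.993 among 8314 genes with at least 20 UMIs in every library. Rag2, Dntt and Arpp21 had r of 0.919, 0.934 and 0.972 with Rag1. These values describe 6 points of which the pair of DN1 libraries lies apart, and every point shares its library with the other genes.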

How the data were processed

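The authors deposited, for each of 6 libraries, raw counts of UMIs per gene and barcode, with no filter on cells. The submitters' processing notes name build mm9. The aligner, the annotation and the use of strand are not given in the sources used here. The tables hold no coordinates, so positions come only from the RefSeq promoter table on GRCm38.p6, another build. Antigen receptor segments were not analysed here.

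Cells were kept as in the study's methods (at least 200 genes, at most 2000 UMIs, at most 30% mitochondrial UMIs), with genes in at least 15 kept cells. These filters did not give the cell number that the study states, and its downsampling was not repeated, so the cell set may differ. No doublet caller was run; the limit of 2000 UMIs stood in its place. UMIs were summed per library and well and scaled to CPM. With 1 library per condition there was no test: levels have exact Poisson intervals, shares Clopper-Pearson intervals (a share of 0 the limit of 3 counts) and ratios exact conditional binomial intervals, computed in Python 3.11.15 with SciPy 1.17.1. UMIs are molecules, yet intervals cover counting error only. Thinning drew 300 UMIs per cell at random (seed 1). TMM factors came from edgeR 4.0.16 (R 4.3.3). The ratio calls and the thinning were tested on simulated data.

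Named genes were the 4 members, the highest-count gene of each list, genes called the same way in at least 2 of 3 genotype comparisons, the 5 most alike in cells for each member, and the 3 most like Rag1 over libraries. Neighbouring genes and markers were named outside this rule, and Hmgb2 and the regulators called between starts after their values were seen. The members, the lists and the markers were chosen with earlier results of these data known. The alternatives tried were other cell filters, other scalings, leaving out stromal cells or 1 well at a time, other thinning and a stricter gate.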

Additional observations from a re-analysis of the deposited data

Results flagged for a closer look

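Between genotypes, ratios of 2 genes had intervals on opposite sides of 0 at different starts; the difference between starts was not tested, since each condition was 1 library. Dntt had a log2 ratio of ΔTE over WT of -0.32 at the DN2a start and 0.41 at the DN2b start. With TMM scaling its DN2a interval included 0, and the Dntt wells of the genotypes overlapped at both starts. Arpp21 had 0.23 at DN1, 0.071 at DN2a and -0.092 at DN2b, and its DN2a and DN2b values changed sign when single wells were left out.

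Barcodes that the filters left out also held the 4 genes. The 1084623 barcodes with under 200 genes held 23.3 CPM of Rag1, 15.1 of Rag2, 91.2 of Dntt and 987 of Arpp21, from 402, 260, 1571 and 17000 UMIs. For Rag1 and Dntt that was more UMIs than in kept cells, which held 366 and 1010 at 11.6 and 31.9 CPM. Kept cells held 441 UMIs of Rag2 and 27725 of Arpp21, at 13.9 and 875 CPM. These sums mix libraries unequally. Arpp21 was lower in the left-out barcodes of WT DN1 (498 against 538 CPM), ΔTE DN1 (551 against 630) and ΔTE DN2a (992 against 1049), and higher in those of the other libraries. The 1700 barcodes with over 2000 UMIs held 4.13, 4.31, 12.6 and 264 CPM of the same genes, and the 23136 with over 30% mitochondrial UMIs held 8.96, 7.76, 32.5 and 543.

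In the barcodes with under 200 genes, Rag1 stood at 5.28, 19.5 and 46.8 CPM from WT DN1, DN2a and DN2b starts and at 4.79, 20.3 and 50.6 from ΔTE starts, higher at each later start. The log2 ratio from DN2a to DN2b in WT was 1.26 (0.84 to 1.69), and that in ΔTE was 1.32 (0.86 to 1.79), against 0.12 and 0.50 in kept cells. The ΔTE to WT ratio of Rag1 at the DN2b start was 0.11 (-0.28 to 0.51) in these barcodes, against 0.67 in kept cells. That of Dntt was -0.79 (-1.07 to -0.52) at DN2a and 0.15 (-0.044 to 0.34) at DN2b.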

How the results depend on the processing

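No paired analysis was possible because each condition was 1 library. Of 148 ratios of the 4 genes under other filters or scalings, 131 stayed within the interval of the reported value, 17 moved, all of Arpp21, and none of the called ratios changed sign. The call of Rag1 at the DN2b start was lost with no mitochondrial limit (0.38) and per kept cell (0.55), and no other call of the 4 genes changed. Arpp21 at DN2a, ΔTE over WT, was -0.067 with no mitochondrial limit, 0.13 with at least 300 genes, 0.20 scaled to non-mitochondrial UMIs, 0.20 with TMM, 0.30 per kept cell and 0.010 without stromal cells; at DN2b it was -0.22 per kept cell. From WT DN1 to DN2a it was 1.08, 0.75, 0.75 and 1.02 with no mitochondrial limit, non-mitochondrial scaling, TMM and without stromal cells, and from WT DN2a to DN2b -0.062, 0.39, 0.42 and 0.15. In ΔTE it was 0.81 from DN1 to DN2a without stromal cells and -0.094 from DN2a to DN2b with no mitochondrial limit. The causes were not tested.

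Leaving out 1 well at a time gave Arpp21 ratios from -0.14 to 0.27 (DN2a, genotype), -0.24 to 0.073 (DN2b, genotype), 0.52 to 0.93 (ΔTE, DN1 to DN2a) and -0.11 to 0.29 (ΔTE, DN2a to DN2b), and Rag1 ratios from -0.11 to 0.74 (ΔTE, DN2a to DN2b), which were called, at 0.69 and 0.74, without ΔTE DN2b well 2 or well 3. The Rag1 genotype ratio at DN2b ran from 0.062 to 0.91. Genes called ran from 854 to 2112 for genotype at DN2a, with 1232 in all wells and 2112 without ΔTE well 2, and from 1013 to 1915 for ΔTE DN1 to DN2a, with 1595 in all wells and 1013 without that well.

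Genes called numbered 805 for genotype at DN2a with no mitochondrial limit. Without stromal cells they numbered 1376 (2279 with them) from WT DN1 to DN2a, 953 (1634) from WT DN2a to DN2b and 1000 (1595) from ΔTE DN1 to DN2a, and 1010 at the last step with no mitochondrial limit. TMM changed the genes called at DN2a between genotypes from 205 higher and 1027 lower to 313 and 676, from WT DN1 to DN2a from 1912 and 367 to 1493 and 541, and from WT DN2a to DN2b from 147 and 1487 to 267 and 984, and non-mitochondrial scaling gave 306 and 695, 1489 and 544, and 245 and 1028. TMM moved the median log2 ratio of all genes in these 3 comparisons from -0.15 to -0.016, from 0.16 to 0.013 and from -0.20 to -0.026. Per kept cell, the split at DN1, DN2a and DN2b between genotypes was 249 and 240, 451 and 495, and 223 and 800, against 188 and 295, 205 and 1027, and 340 and 509.

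With at least 3 marker UMIs, T-gated cells held 122 CPM of Dntt and 1556 of Arpp21, ILC or NK cells 36.6 and 675, myeloid cells 0 and 218, stromal cells 179 of Arpp21, progenitor cells 3.50 of Rag1, 3.50 of Rag2 and 458 of Arpp21, and cells in no gate 923 of Arpp21. The co-detection ratios stayed within their intervals under no thinning, thinning to 500 UMIs and a limit of 1000 UMIs. Rag1 and Rag2 had 14 to 162 UMIs per library, and 5 of their 6 genotype intervals included 0, which does not show that the genotypes were alike.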
